A study of Rattus norvegicus with 12 samples.

Results

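The transcripts described here are those of the mitochondrial ribosomal proteins, taken as every gene of the platform table whose symbol begins with Mrps or Mrpl followed by a number. There were 68 such genes among 14497 measured, 27 named for the small subunit (Mrps) and 41 for the large subunit (Mrpl). All 68 passed the filter on dim genes, which left 10174 genes for testing. Each gene is represented by its brightest probe, and a level is given as log2(intensity + 1).

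The samples were livers of Sprague Dawley rat fetuses on day 19 of a 21-day gestation. The 12 arrays formed 4 groups of 3: fasted polysome and fed polysome RNA, and fasted total and fed total RNA, where fasted dams went without food for 48 hr from day 17 and fed dams ate ad libitum. Maternal fasting is used in this study as a model of intrauterine growth restriction (IUGR), and the study set the RNA on polysomes beside all liver RNA. The labels give 3 dams per diet and call the arrays biological replicates, but the polysome preparations had been pooled. Spreads between polysome arrays, and p-values from fits that include them, may therefore not measure variation between single dams. Acid phenol was used to extract polysome RNA and guanidine thiocyanate with cesium chloride to extract total RNA, so in every polysome against total comparison the fraction and the extraction cannot be told apart.

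Mitochondria contain their own ribosomes, which translate the few messages encoded by mitochondrial DNA, all for subunits of the oxidative phosphorylation complexes. The ribosomal RNAs of these ribosomes are encoded in the mitochondrial genome, whereas every protein of both subunits is encoded in the nucleus, translated on cytosolic ribosomes and imported. Polysomes are messages loaded with several cytosolic ribosomes, so a transcript's signal in polysome RNA relative to total RNA reflects how much of it was recovered with them. In fetal liver, the mitochondrial translation machinery serves both hepatocytes and the blood-forming cells that the organ still holds.

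The arrays were of like brightness, with median probe intensities between 101.3 and 108.3. Arrays of one group correlated at 0.9914 to 0.9961 over all probes, and arrays of different fractions at 0.9816 to 0.9880. Hepatocyte markers (8 of 8 measured, such as Alb and Afp) were bright in every array, with summed intensities of 85240 to 86719 in fasted polysome, 81502 to 89585 in fed polysome, 89140 to 93262 in fasted total and 89170 to 91417 in fed total RNA. In bulk RNA, fewer cells of a type and less RNA per cell cannot be told apart. One library stood out for another tissue: the summed intensity of exocrine pancreas markers was 3030 in fed total array 1, against 505 to 1175 in the other total RNA arrays, and 2 of the 6 markers, Pnlip and Prss1, were too dim to be tested.

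Promoter sequences are shown for 3 members at the extremes of the polysome comparison. They are the RefSeq windows of assembly GRCr8 that run from 250 bases before to 50 bases after the gene's start, printed on the gene's strand. Capitals mark any copy, on either strand, of 3 short motifs bound by regulators of nuclear genes for mitochondria: CCGGAAG for the ETS factors (the family of GABP), AAGATGGC for YY1 and GCATGCGC for NRF1. Mrps16 is given because it had the largest rise on polysomes in fasted dams, Mrpl36 because it had the largest in fed dams, and Mrps27 because it fell the most in fed dams.
Mrps16, chr15:3967559-3967858, plus strand: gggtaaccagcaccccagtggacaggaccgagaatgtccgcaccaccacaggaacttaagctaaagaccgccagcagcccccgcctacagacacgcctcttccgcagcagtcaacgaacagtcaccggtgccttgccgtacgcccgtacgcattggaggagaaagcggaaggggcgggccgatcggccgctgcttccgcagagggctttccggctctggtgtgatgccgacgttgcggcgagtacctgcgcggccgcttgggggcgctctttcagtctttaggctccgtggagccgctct
Mrpl36, chr1:31795072-31795371, minus strand: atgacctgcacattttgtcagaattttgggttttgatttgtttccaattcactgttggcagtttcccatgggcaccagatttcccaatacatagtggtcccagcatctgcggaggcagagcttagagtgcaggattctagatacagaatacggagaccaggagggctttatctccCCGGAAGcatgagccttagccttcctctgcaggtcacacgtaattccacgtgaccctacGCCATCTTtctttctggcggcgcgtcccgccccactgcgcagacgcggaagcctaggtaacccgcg
Mrps27, chr2:32473954-32474253, plus strand: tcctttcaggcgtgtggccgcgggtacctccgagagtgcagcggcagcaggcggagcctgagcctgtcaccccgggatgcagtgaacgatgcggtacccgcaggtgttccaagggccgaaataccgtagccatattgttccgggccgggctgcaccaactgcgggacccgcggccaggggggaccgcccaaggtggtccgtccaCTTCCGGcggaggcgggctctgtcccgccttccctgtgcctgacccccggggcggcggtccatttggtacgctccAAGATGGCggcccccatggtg

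The Mrps16 window held none of the 3 motifs in these exact letters. In the Mrpl36 window the ETS letters began at position -75 from the start and the YY1 letters at position -16. In the Mrps27 window the ETS letters began at position -46 and the YY1 letters at position 29, inside the transcribed part. The Mrpl36 and Mrps27 windows held the same pair of motifs. Both genes were picked as extremes, and a link of motifs to the polysome difference was not tested. Of the 68 members, 54 had a RefSeq window and 14 had none in the table: Mrpl13, Mrpl15, Mrpl16, Mrpl19, Mrpl21, Mrpl35, Mrpl38, Mrpl43, Mrps12, Mrps22, Mrps24, Mrps28, Mrps34 and Mrps35.

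Across the 54 windows the ETS letters were found in 17 (31.5%), the YY1 letters in 14 (25.9%) and the NRF1 letters in 5 (9.26%). Over all 33469 rat promoter windows of the same length the shares were 8.75%, 3.17% and 2.47%. At least 1 of these motifs was present in 28 member windows (51.9%), against 13.3% of all windows. The median GC content was 56% in member windows and 51.7% in all windows. All windows are not limited to genes that passed the filter, as every member did, and the shares were not matched for GC content. For contrast, TATAAA stood in 8 member windows (14.8%, against 14.2% of all), and the E-box CACGTG in 6 (11.1%, against 6.42%). By subunit, ETS letters stood in 7 of 21 Mrps and 10 of 33 Mrpl windows and YY1 letters in 6 of 21 and 8 of 33. CACGTG is its own reverse complement, the other motifs were searched on both strands, and the ETS and YY1 motifs can overlap by 3 letters. A match describes the letters of a window and is not evidence of binding.

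Many members start near a neighbour that is read in the opposite direction. Such a neighbour within 1000 bases was listed for 18 of 54 members (33.3%), against 12.3% of all windows. Distances between the starts ran up to 996 bases. Here too, all windows are not limited to genes that passed the filter. One pair consists of a large and a small subunit gene, Mrpl46 and Mrps11. Others are Mrpl47 with Ndufb5, a subunit of respiratory complex I, Mrpl49 with Fau, which encodes a cytosolic ribosomal protein, and Mrps27 with Ptcd2. 

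Most mitochondrial ribosomal protein transcripts were higher in polysome RNA than in total RNA, in both diets. In fasted dams 54 of 68 members were called higher and 0 lower, against a background of 25.5% of all tested genes called higher and 18.2% lower. In fed dams 49 of 68 were called higher and 2 lower, where 24.1% of all tested genes were called higher and 19.4% lower. Calls here are from the limma fit, with Benjamini-Hochberg adjustment over all 10174 genes and a threshold of 0.05. RMA brings all arrays of a set to a like, though not identical, spread of intensities. These are therefore shifts relative to the other transcripts of an array and not absolute amounts.

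The median difference of the 68 members between polysome and total RNA was 0.52 log2 in fasted dams and 0.37 log2 in fed dams, where all tested genes had medians of 0.05 and 0.04. In fasted dams 65 of 68 members had a positive difference, against 57.7% of all genes, and in fed dams 61 of 68, against 55.4%. Differences ran from -0.14 to 1.45 in fasted dams and from -0.49 to 1.24 in fed dams. A rise of at least 1.5-fold was called for 27 members (39.7%) in fasted dams, against 5.45% of all tested genes, and for 16 (23.5%) in fed dams, against 4.68%. A rise of at least 2-fold was called for 4 members (5.88%) in each diet, against 0.855% of all tested genes in fasted and 0.629% in fed dams. Called higher in both diets were 47 of 68 members, against 19.3% of all tested genes; the 2 comparisons use separate arrays but share the extraction difference.

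**Figure D1:**
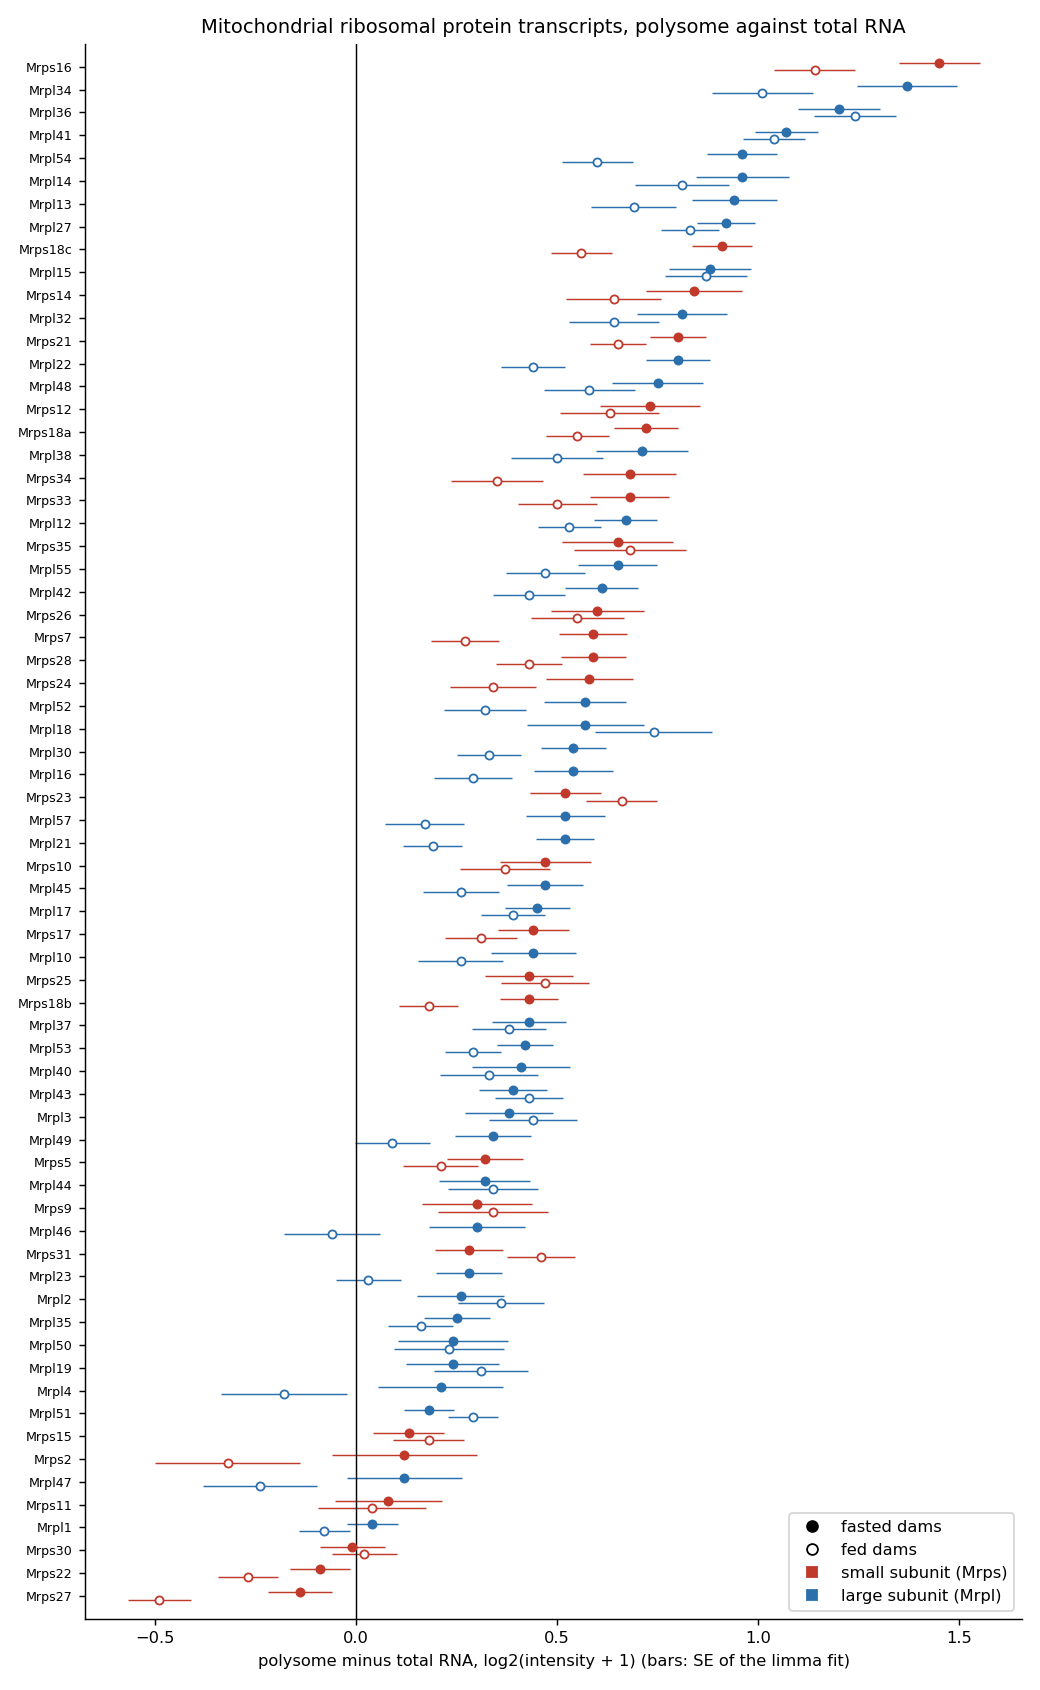
Difference between polysome and total RNA, in log2(intensity + 1), for each of the 68 mitochondrial ribosomal protein genes (rows, ordered by the fasted value). Filled circles are fasted dams and open circles fed dams, red marks the small and blue the large subunit, and bars are the SE of the limma fit; nearly all points lie right of 0, and Mrps27 and Mrps22 lie at the bottom.

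Mrps16, the mitochondrial counterpart of a bacterial small subunit protein and a human mitochondrial disease gene, had the largest difference in fasted dams. Its log2 levels were 10.53, 10.27 and 10.27 in fasted polysome RNA, against 8.78, 9.04 and 8.91 in fasted total RNA. In fed dams they were 10.05, 10.20 and 10.37 in polysome RNA, against 9.01, 9.09 and 9.08 in total RNA. Every polysome array lay more than a log2 unit above every total array of its diet except for fed polysome array 1, whose level of 10.05 was just short of that. The difference was 1.45 in fasted dams (SE 0.101, 2.73-fold, limma adjusted p = 7.66e-07) and 1.14 in fed dams (SE 0.101, 2.21-fold, limma adjusted p = 3.46e-06).

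Mrpl36, a small zinc-binding protein of the large subunit, led in fed dams. Its log2 levels were 10.71, 10.49 and 10.82 in fasted polysome RNA, against 9.34, 9.61 and 9.47 in fasted total RNA. Fed polysome arrays gave 10.78, 10.87 and 10.84, against 9.69, 9.66 and 9.42 in fed total RNA. The groups were far apart, and the fed polysome arrays were the most alike. The differences were 1.20 in fasted and 1.24 in fed dams (SE 0.102 each, limma adjusted p = 2.36e-06 and 2.12e-06).

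Mrpl34, another large subunit protein with a bacterial counterpart, had levels of 10.29, 10.14 and 10.41 in fasted polysome RNA, against 8.83, 9.07 and 8.81 in fasted total RNA. In fed dams its levels lay between 9.90 and 10.14 on polysomes, against 9.04, 9.25 and 8.74 in total RNA. Fed total arrays were the most scattered, yet no polysome array came near a total array. The differences were 1.37 in fasted and 1.01 in fed dams (SE 0.125 each, limma adjusted p = 3.77e-06 and 4.08e-05).

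Mrpl41, a large subunit protein without a bacterial counterpart, was the remaining member past 2-fold in both diets. It had 10.48, 10.29 and 10.40 in fasted polysome RNA, against 9.27, 9.29 and 9.40 in fasted total RNA. In fed dams it had 10.58, 10.57 and 10.55 on polysomes, against 9.55, 9.62 and 9.42 in total RNA. Its arrays were tightly grouped in both fractions, and the differences were 1.07 in fasted and 1.04 in fed dams (SE 0.0773 each, limma adjusted p = 9.22e-07 and 1.1e-06). A second probe that the platform table assigns to Mrpl41 gave 1.32 and 1.46. This second probe was dimmer, with a mean log2 level of 7.16 against 9.95. The annotation lists a like-named copy, Mrpl41l1, and which of the loci each probe detects was not tested. The levels given for Mrpl41 may therefore be those of the copy.

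The next largest rises also belonged to the large subunit. In fasted dams Mrpl14, which lies where the subunits meet, had a difference of 0.96, and Mrpl54, a protein found only in mitochondrial ribosomes, likewise had 0.96. In fed dams Mrpl15 had 0.87 and Mrpl27, a protein near the catalytic centre of the large subunit, had 0.83. In each diet the 6 largest rises therefore comprised 1 small and 5 large subunit genes, in a set with 27 small and 41 large. That tally is of extremes picked by their values. Over all members the small minus large median was -0.001 in fasted and 0.014 in fed dams.

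**Figure D2:**
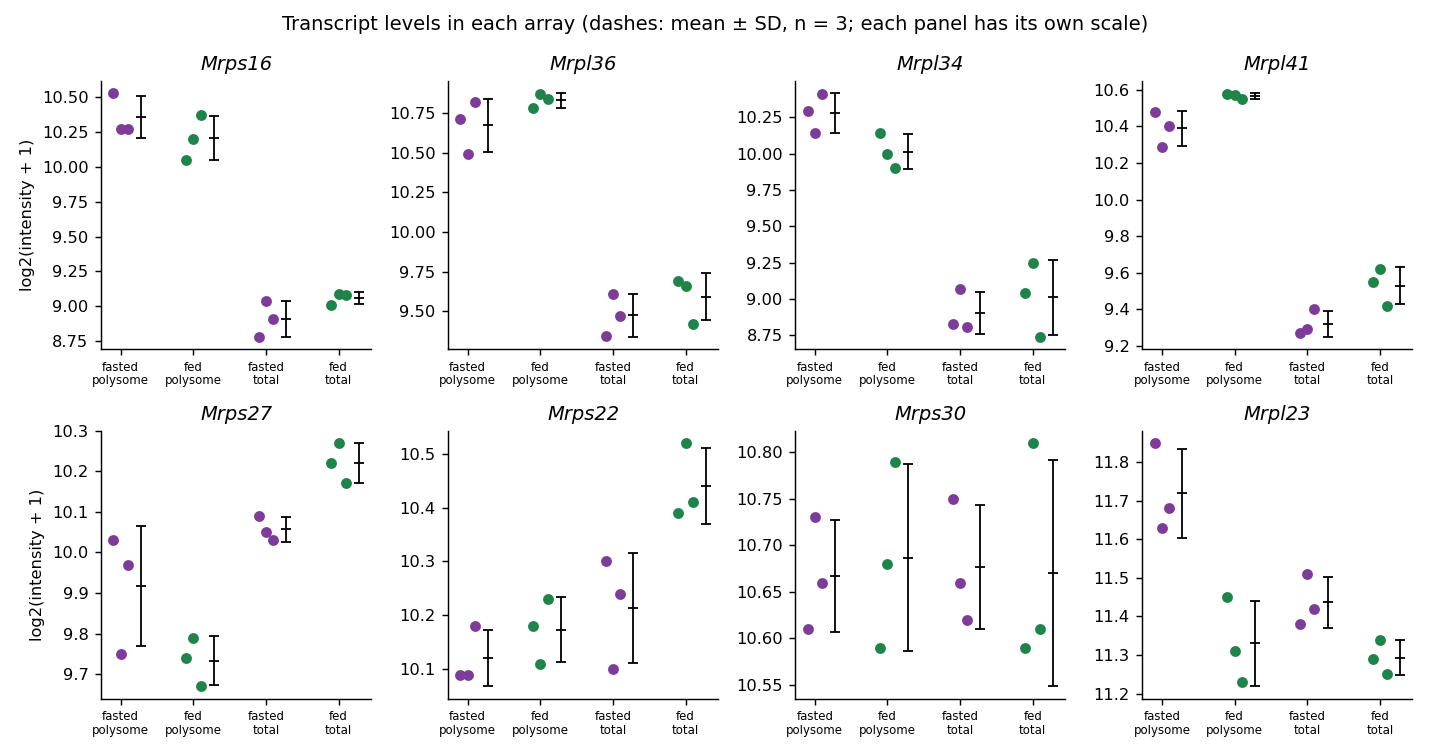
Levels in log2(intensity + 1) of 8 members in each of the 12 arrays, by group (purple fasted, green fed), with mean ± SD (n = 3) beside the points. Mrps16, Mrpl36, Mrpl34 and Mrpl41 lie far higher in both polysome groups, Mrps27 and Mrps22 are highest in fed total RNA, Mrps30 overlaps in all groups, and Mrpl23 is highest in fasted polysome RNA.

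The only 2 members called lower on polysomes, both in fed dams, were small subunit genes. Mrps27, a small subunit protein with RNA-binding pentatricopeptide repeats, had levels of 9.74, 9.79 and 9.67 in fed polysome RNA, against 10.22, 10.27 and 10.17 in fed total RNA. In fasted dams it had 10.03, 9.75 and 9.97 on polysomes, against 10.09, 10.05 and 10.03 in total RNA. The fed groups were well separated, whereas in fasted dams polysome array 1 was level with total RNA and array 2 was the lowest. It fell by 0.49 in fed dams (SE 0.0788, limma adjusted p = 0.000284), and its fasted difference of -0.14 was not called (95% interval -0.31 to 0.03, limma adjusted p = 0.173).

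Mrps22, a small subunit protein specific to mitochondria and a human disease gene, had levels of 10.18, 10.11 and 10.23 in fed polysome RNA, against 10.39, 10.52 and 10.41 in fed total RNA. In fasted dams it had 10.09, 10.09 and 10.18 on polysomes, against 10.30, 10.10 and 10.24 in total RNA. The fed groups did not overlap, while 1 fasted total array lay among the polysome arrays. It fell by 0.27 in fed dams (SE 0.0744, limma adjusted p = 0.0111); the call was lost without fed total array 2, with a difference of -0.22 and limma adjusted p = 0.0523. In fasted dams the difference was -0.09 (limma adjusted p = 0.355).

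A further 10 members, listed here after their values were seen, were called in neither diet: Mrpl1, Mrpl4, Mrpl46, Mrpl47, Mrpl50, Mrps2, Mrps9, Mrps11, Mrps15 and Mrps30. Mrps11 is judged here by its brightest probe alone, and its dimmer second probe gave 0.49 in fasted and 0.14 in fed dams. Mrpl1, of the stalk of the large subunit, was lower on polysomes in every fed array without being called, at -0.08 (limma adjusted p = 0.324). Mrps30, which despite its symbol sits in the large subunit, gave 10.61, 10.73 and 10.66 in fasted polysome RNA, against 10.75, 10.66 and 10.62 in fasted total RNA. In fed dams it gave 10.59, 10.68 and 10.79 on polysomes, against 10.59, 10.81 and 10.61 in total RNA. All 4 groups overlapped, with differences of -0.01 in fasted (95% interval -0.18 to 0.16) and 0.02 in fed dams (95% interval -0.16 to 0.19). The sign of these values near 0 depended on the scaling and on single arrays.

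The 3 Mrps18 genes encode related forms that occupy different places, Mrps18b and Mrps18c in the small and Mrps18a in the large subunit. Mrps18c had 11.62, 11.47 and 11.64 in fasted polysome RNA, against 10.71, 10.67 and 10.64 in fasted total RNA, a difference of 0.91, and 0.56 in fed dams. Mrps18a differed by 0.72 in fasted and 0.55 in fed dams. Mrps18b differed by 0.43 in fasted dams (limma adjusted p = 0.000398), while its fed difference of 0.18 was not called (95% interval 0.03 to 0.34, limma adjusted p = 0.0574). The 3 forms were not tested against one another.

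Mrpl12, a protein of the large subunit stalk that also binds the mitochondrial RNA polymerase, had levels of 10.25, 10.06 and 10.23 in fasted polysome RNA, against 9.49, 9.64 and 9.40 in fasted total RNA. The groups were apart, and the difference was 0.67 in fasted and 0.53 in fed dams (limma adjusted p = 2.43e-05 and 0.000153). Mrpl3 and Mrpl44, both large subunit genes mutated in human cardiomyopathy, changed less. Mrpl3 rose by 0.38 in fasted and 0.44 in fed dams (limma adjusted p = 0.0135 and 0.00602), with the fasted call lost without fasted polysome array 3 (0.34, limma adjusted p = 0.0512). Mrpl44 rose by 0.32 and 0.34 (limma adjusted p = 0.0333 and 0.0248). Its fasted call was lost without fasted total array 1 or 2 or fasted polysome array 1 or 3, the value lying between 0.25 and 0.35, and its fed call without fed total array 1 or 3 or fed polysome array 2 or 3, the value lying between 0.25 and 0.33.

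Genes of both subunits were mostly higher on polysomes. In fasted dams 20 of 27 small and 34 of 41 large subunit genes were called higher, with medians of 0.52 log2 for each. In fed dams 18 of 27 small and 31 of 41 large subunit genes were called higher, with medians of 0.37 and 0.36. The median of the small minus that of the large subunit was -0.001 in fasted dams and 0.014 in fed dams. The spread between replicates was 0.062 (SD) in fasted and 0.0302 in fed dams. This spread is that of the same difference in single arrays within groups, and is not the error of the reported value. The fed value moved to 0.106 without fed polysome array 1, and to 0.061 to 0.066 without fed total array 1 or 3 or fed polysome array 3, all in the direction of the small subunit, and to -0.020 without fed polysome array 2. Counting Mrps18a and Mrps30 with the large subunit, where their proteins sit, left the differences at -0.001 and 0.014.

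**Figure D3:**
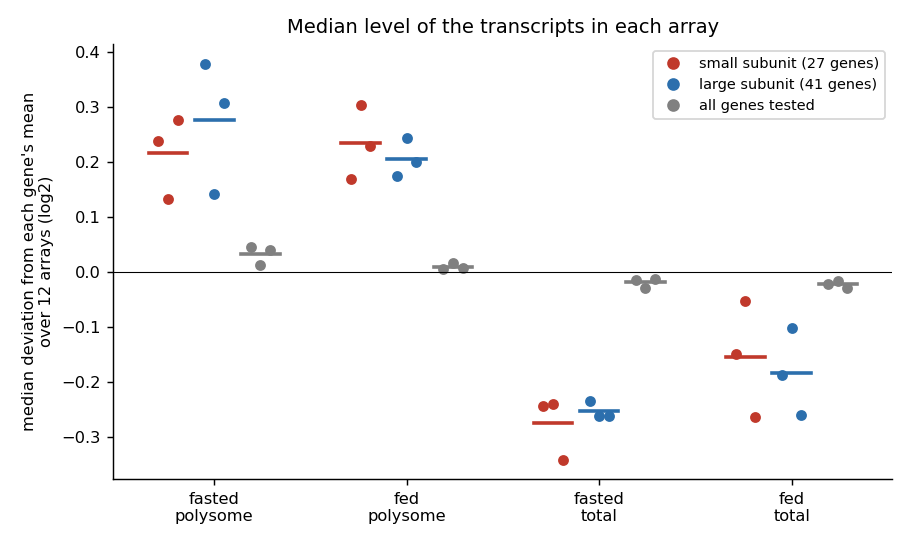
Median over genes of the deviation of each gene from its own mean over the 12 arrays (log2), with 1 point per array and a bar at the group mean, for 27 small subunit genes (red), 41 large subunit genes (blue) and all tested genes (grey). Both subunits lie above 0 in all 6 polysome arrays and below 0 in all 6 total arrays, and the grey points stay near 0.

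In some arrays many members shifted the same way relative to their group means. In fed total array 2, 62 of 68 members lay above their own group mean, and in fed total array 3 only 10 did. In fasted polysome array 2, 8 of 68 lay above the group mean, against 48 and 46 in the other arrays of that group. Without fed total array 3 the members called higher in fed dams numbered 36, the fewest when any array was left out, and without fed total array 2 they numbered 45. Without fasted polysome array 2 the number called higher in fasted dams was 54. The median difference over members lay between 0.464 and 0.561 in fasted dams and between 0.328 and 0.432 in fed dams when each array was left out in turn.

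Members with and without a motif had like medians. The 17 members with ETS letters had median polysome differences of 0.52 in fasted and 0.37 in fed dams, and the 37 without had 0.44 and 0.36. With YY1 letters (14 members) the medians were 0.45 and 0.32, and without (40 members) 0.46 and 0.38. The 18 members with a divergent neighbour had 0.42 and 0.33, and the 36 without had 0.49 and 0.41. These medians are descriptions, and no test was made of them.

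Some probes may also detect related sequences. The rat annotation lists a pseudogene or like-named copy for 23 members, whose median difference was 0.45 in fasted and 0.37 in fed dams; for the 45 without one it was 0.54 and 0.35. For Mrps11, the probe used gave 0.08 and 0.04, and a dimmer second probe gave 0.49 and 0.14. For Mrpl42 the probe used gave 0.61 and 0.43 and the second gave 0.37 and 0.13. For Mrpl40 the probe used gave 0.41 and 0.33 and the second 0.50 and 0.23. Together with the 2 probes of Mrpl41 given above, these are all the members with a second probe, and none of the 4 pairs gave the same value in both diets.

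Other parts of the mitochondrial gene expression system, taken from lists of textbook components, differed in their calls on polysomes. Their counts stand against the all-gene shares of 25.5% called higher and 18.2% lower in fasted dams, and 24.1% higher and 19.4% lower in fed dams. Of 72 tested nuclear-encoded subunits of the oxidative phosphorylation complexes, 50 were called higher and 4 lower in fasted dams, and 43 higher and 8 lower in fed dams, with medians of 0.46 and 0.37 and shares called higher of 69.4% and 59.7%. Atp5mg, a small ATP synthase subunit, had 1.82 and 1.63, and Ndufb8, of complex I, had 1.09 and 1.15. Of 71 cytosolic ribosomal protein genes, 28 were called higher and 8 lower in fasted dams, and 26 higher and 9 lower in fed dams, with a median of 0.10 in each and shares called higher of 39.4% and 36.6%. Rps3 and Rps14 were among the higher ones, with 0.96 and 0.88 in fasted and 1.03 and 0.99 in fed dams. The difference between lists was not tested.

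Among 5 tested mitochondrial ribosome proteins whose symbols do not begin with Mrp, 3 were called higher in both diets: Chchd1 (1.15 in fasted and 0.67 in fed dams), Aurkaip1 (0.59 and 0.47) and Gadd45gip1 (0.57 and 0.37). The medians of these 5 were 0.57 and 0.37. Of 26 tested assembly factors of the mitochondrial ribosome, 12 were called higher and 0 lower in fasted dams, and 8 higher and 1 lower in fed dams (46.2% and 30.8% higher, medians 0.21 and 0.15). Mtg1, a GTPase that acts on the large subunit, had 0.65 and 0.45, and the lower one was Gtpbp10, also a GTPase of the large subunit, at -0.29 in fed dams. Of 11 tested translation factors, 5 were called higher and 1 lower in fasted dams and 4 higher and 0 lower in fed dams (45.5% and 36.4% higher, medians 0.20 and 0.11). Mtfmt, which formylates the initiator tRNA, had 0.48 and 0.53, and Lrpprc, which stabilises mitochondrial messages, fell by 0.36 in fasted dams, a call lost without fasted polysome array 1 (-0.28, limma adjusted p = 0.0535).

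Of 16 tested genes of mitochondrial transcription and RNA processing, 6 were called higher and 1 lower in fasted dams, and 7 higher and 3 lower in fed dams (37.5% and 43.8% higher). The medians of these 16 were 0.02 and -0.04, no higher than the 0.05 and 0.04 of all tested genes, and 9 of 16 were negative in fed dams. Tfam, which packages and transcribes mitochondrial DNA, had 0.53 and 0.59, and Mterf1, a transcription termination factor, fell by 0.72 in fed dams. Of 13 tested mitochondrial aminoacyl-tRNA synthetases and amidotransferase subunits, 2 were called higher and 0 lower in fasted dams, and 2 higher and 2 lower in fed dams. The share called higher, 15.4% in each diet, was below that of all tested genes, and the medians were 0.10 and 0.12. Gatc, of the amidotransferase, had 0.81 and 0.47, and Yars2 fell by 0.56 in fed dams. Of 8 tested regulators of mitochondrial biogenesis, 6 were called higher and 0 lower in each diet (75% higher, medians 0.43 and 0.38), among them Gabpa (0.46 and 0.44), a subunit of the ETS factor GABP, and Nrf1 (0.43 and 0.37).

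**Figure D4:**
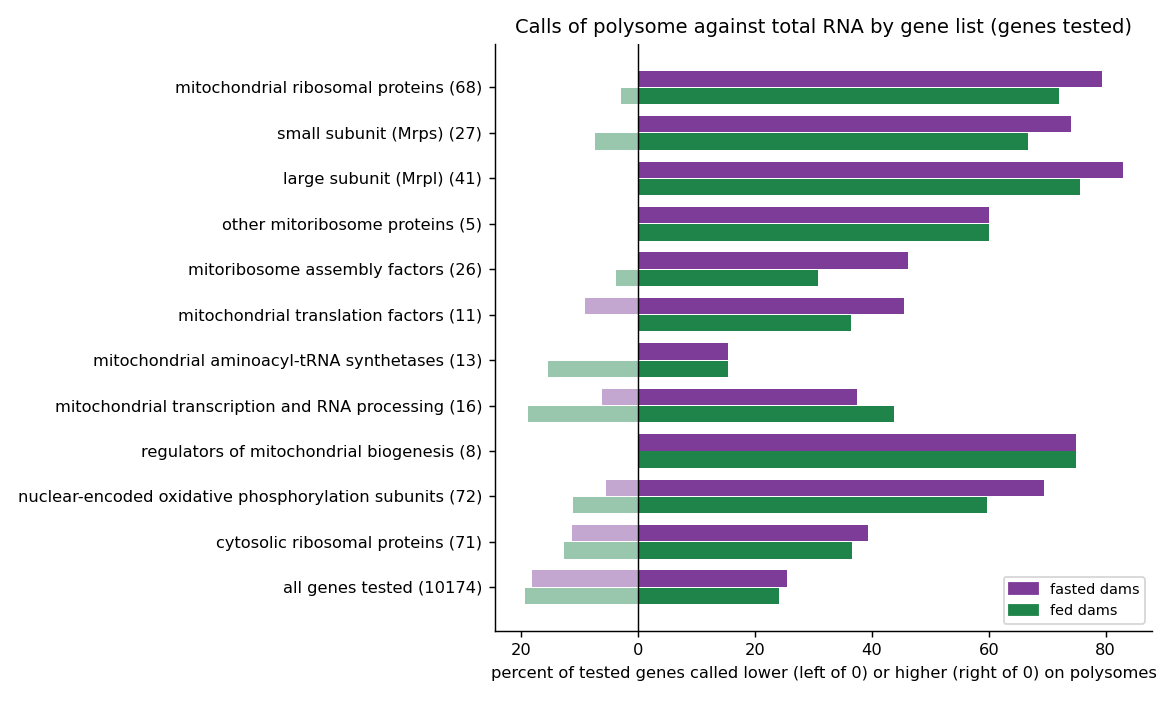
Percent of the tested genes of each list called higher (right of 0) or lower (left of 0, paler) on polysomes than in total RNA, in fasted (purple) and fed (green) dams, with the number of tested genes in brackets. Mitochondrial ribosomal proteins reached 79.4% higher in fasted and 72.1% in fed dams, against 25.5% and 24.1% of all tested genes.

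The marker sets of the liver's cell types did not move as one in the same comparison. Of 8 hepatocyte markers, 1 was called higher and 3 lower in fasted dams, and 1 higher and 2 lower in fed dams, with 6 of 8 negative in each and medians of -0.11 and -0.13. All 6 macrophage markers were called lower on polysomes in fasted dams and 5 of 6 in fed dams, and their summed intensity was 3028 to 3135 in fasted polysome against 4560 to 5012 in fasted total RNA, and 2508 to 2688 in fed polysome against 3939 to 4147 in fed total RNA. All 5 measured endothelial markers were called lower in fasted and 4 of 5 in fed dams, with summed intensities of 1588 to 1626 in fasted polysome against 2503 to 2744 in fasted total RNA, and 1516 to 1634 in fed polysome against 2297 to 2416 in fed total RNA. Of 7 measured erythroid markers, 1 was called higher and 0 lower in each diet, and they summed to 39370 to 40005 in fasted polysome, 38919 to 39388 in fed polysome, 38491 to 39795 in fasted total and 38702 to 40674 in fed total RNA. Of 4 tested neutrophil markers, 1 was called lower in fasted and 2 in fed dams, and the set summed to 6117 to 6948 in fasted polysome against 8052 to 8507 in fasted total RNA, and to 5796 to 6769 in fed polysome against 6979 to 9355 in fed total RNA. Of 3 measured megakaryocyte markers, 1 was called higher in fed dams and 0 lower in either diet, with sums of 2249 to 2786 in fasted polysome against 2426 to 3190 in fasted total RNA, and 3119 to 3306 in fed polysome against 2420 to 3133 in fed total RNA. None of these marker sets was at 0 in any group, and their part in the result was not tested.

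Calls for maternal fasting were rare over all tested genes, and the members' counts of 0 in total RNA and 1 in polysome RNA were near that background. In total RNA 0 of 68 members were called by limma, where 1.03% of all tested genes were, and 18 members (26.5%) had an unadjusted p under 0.05, against 16.2% of all tested genes. The differences were mostly negative, with 59 of 68 below 0 (49.8% of all tested genes) and a median of -0.10 log2 (all genes 0.00). In 21 members every fasted array lay below every fed array, against 11.9% of all tested genes, and in 1 member, Mrpl23, every fasted array lay above, against 12.9%. All differences were between -0.37 and 0.14.

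The lowest limma adjusted p in total RNA belonged to Mrpl21, a large subunit protein with a bacterial counterpart, named after its values were seen. Its levels were 10.87, 10.84 and 10.94 in fasted total RNA, against 11.18, 11.24 and 11.09 in fed total RNA. The groups were apart, and the difference was -0.29 (95% interval -0.44 to -0.13, limma adjusted p = 0.0756). Mrpl49 had the largest negative difference, with 9.13, 9.12 and 9.29 in fasted total RNA, against 9.53, 9.74 and 9.37 in fed total RNA, a difference of -0.37 (limma adjusted p = 0.0789). Mrpl47 differed by -0.33 and Mrpl54 by -0.31, with groups apart and limma adjusted p of 0.281 and 0.105. None of these passed the threshold.

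The negative median in total RNA rested in part on 1 array. The median deviation of the members from their 12-array means was -0.240, -0.250 and -0.318 in fasted total arrays, against -0.171, -0.090 and -0.263 in fed total arrays. The groups overlapped, since fed total array 3 was below 2 of the fasted arrays. Without fed total array 2 the median was -0.070 with 44 members negative, and without fed total array 3 it was -0.145 with 62 negative. Without fed total array 1, which had the pancreas markers, it was -0.116 with 61 negative.

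By subunit, the total RNA medians were -0.15 for the small and -0.09 for the large subunit. The small minus large difference was -0.057, with a spread between replicates of 0.0412 (SD). It stayed between -0.084 and -0.046 when each array was left out in turn. Counted by structure, with Mrps18a and Mrps30 in the large subunit, it was -0.058. No p is given for a difference between lists.

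In polysome RNA 1 of 68 members was called, Mrpl23, which was higher in fasted dams; 1.59% of all tested genes were called higher and 0.423% lower. With Mrpl23, 12 members (17.6%) had an unadjusted p under 0.05, against 20.9% of all tested genes. Differences were balanced, with 36 positive and 32 negative and a median of 0.01 log2 (all genes 0.02), and that median was -0.004 after quantile normalization. Every fasted polysome array lay above every fed one in 4 members, against 12.4% of all tested genes, and below in 4, against 8.38%.

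Mrpl23 lies beside the tunnel through which the growing chain leaves the large subunit. Its levels were 11.85, 11.63 and 11.68 in fasted polysome RNA, against 11.45, 11.31 and 11.23 in fed polysome RNA. In total RNA it had 11.38, 11.51 and 11.42 in fasted dams, against 11.29, 11.34 and 11.25 in fed dams. Fasted arrays were above fed arrays in both fractions, with array 1 the highest of the fasted polysome arrays. The difference was 0.39 in polysome RNA (SE 0.0815, 1.31-fold, limma adjusted p = 0.0372) and 0.14 in total RNA (limma adjusted p = 0.432). The polysome call was lost without fasted polysome array 1 (0.32, limma adjusted p = 0.138) or 3 (limma adjusted p = 0.109), without fed polysome array 2 (limma adjusted p = 0.112) or 3 (limma adjusted p = 0.104), and without fed total array 1 (limma adjusted p = 0.0507). It was also lost with no filter on dim genes (limma adjusted p = 0.0574) and with only the polysome arrays in the fit (limma adjusted p = 0.121).

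Mrpl57 and Mrpl52, large subunit proteins without bacterial counterparts, also had fasted polysome arrays all above fed ones. Mrpl57 had 10.87, 10.67 and 10.91 in fasted polysome RNA, against 10.63, 10.44 and 10.34 in fed polysome RNA, a difference of 0.34 (limma adjusted p = 0.0763). Mrpl52 differed by 0.30 (limma adjusted p = 0.118). In the other direction Mrps31 differed by -0.19, Mrpl41 by -0.17 and Mrps23 by -0.16, with groups apart and limma adjusted p of 0.217, 0.217 and 0.306. None of these 5 passed the threshold.

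The number of calls in polysome RNA changed in 7 of the 12 fits that left out 1 array, to 0 in the 5 that lost Mrpl23 and upward in 2. Without fed polysome array 1, 6 members (8.82%) were called, against 5.07% of all tested genes: Mrpl23, Mrpl4, Mrpl57 and Mrps2 higher and Mrps25 and Mrps9 lower in fasted dams. Without fasted polysome array 2, 4 members (5.88%) were called, all higher, against 7.42% of all tested genes: Mrpl23, Mrpl52, Mrpl57 and Mrps27. Leaving out both arrays, a choice made after seeing the data, gave 7 higher and 2 lower (13.2%), against 12.4% of all tested genes. The median of the small minus that of the large subunit was -0.045 in polysome RNA (SD between replicates 0.0554), and it was 0.013 without fed polysome array 3.

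**Figure D5:**
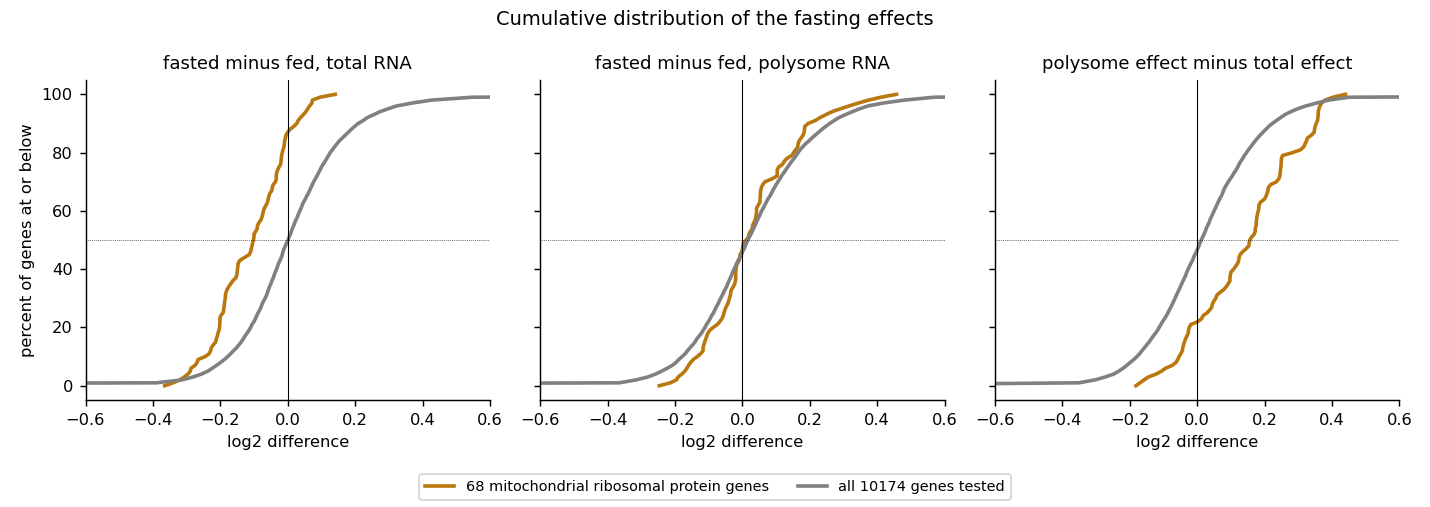
Cumulative share of genes (percent, vertical) at or below a given log2 difference (horizontal) for the fasting effect in total RNA, in polysome RNA and for the polysome effect minus the total effect, for 68 mitochondrial ribosomal protein genes (orange) and all 10174 tested genes (grey). The orange curve crosses 50% at -0.10 in total RNA, at 0.01 in polysome RNA and at 0.16 for the difference.

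Whether fasting acted differently on the 2 fractions was tested directly, as the fasting effect in polysome RNA minus that in total RNA. The limma fit called 0 of 68 members, and 0% of all tested genes, with the lowest adjusted p of the members at 0.856. An unadjusted p under 0.05 was found for 8 members (11.8%), against 5.4% of all tested genes. The values were positive in 53 of 68 members (53.3% of all tested genes), with a median of 0.16 log2 (all genes 0.01) and a range of -0.18 to 0.44. Mrps2 had the largest, at 0.44 (95% interval -0.11 to 0.99), and Mrps31 the lowest, at -0.18 (95% interval -0.44 to 0.08).

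Mrps27 had a difference between effects of 0.35 (95% interval 0.11 to 0.59), Mrpl21 of 0.33 (95% interval 0.11 to 0.55) and Mrpl54 of 0.36 (95% interval 0.10 to 0.63), each with limma adjusted p = 0.856. For Mrps16 it was 0.30 (limma adjusted p = 0.856), and for Mrpl36 it was -0.04 (95% interval -0.35 to 0.27). Apart from Mrps16, these members were chosen after their values were seen. The median over members was 0.120 without fed total array 2, 0.203 without fed total array 3, 0.205 without fasted polysome array 2 and 0.111 without fasted polysome array 1 or 3. The small minus large difference was -0.023 (SD between replicates 0.0488), and 0.032 without fasted polysome array 1. Members called higher on polysomes in only 1 diet are therefore not shown to differ between diets: 7 in fasted dams (Mrpl10, Mrpl23, Mrpl35, Mrpl49, Mrpl57, Mrps5 and Mrps18b) and 2 in fed dams (Mrpl2 and Mrpl19). Of all tested genes, 25.5% were called higher in fasted dams, 24.1% in fed dams and 19.3% in both.

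Fasting calls in the related lists are given beside the all-gene shares of 1.03% in total RNA and 1.59% higher and 0.423% lower in polysome RNA. In total RNA the call in these lists was Slirp, 1 of 11 translation factors and the partner of Lrpprc in holding mitochondrial messages, which fell by 0.41 (limma adjusted p = 0.0428); of the 12 fits that left out 1 array it passed in 3, those without fasted polysome array 2, fed polysome array 1 or fed polysome array 3. In polysome RNA Pprc1, 1 of 8 regulators and a coactivator of mitochondrial biogenesis, fell by 0.43 (limma adjusted p = 0.046), a call kept without fasted total array 3, fasted polysome array 2 or fed polysome array 1 and lost when any one of the other 9 was left out. Ppargc1a, its better known relative, differed by 0.54 without passing (limma adjusted p = 0.0511). Ndufv2, of complex I and 1 of 72 oxidative phosphorylation subunits, rose by 0.34 on polysomes (limma adjusted p = 0.0372), and 2 of 71 cytosolic ribosomal protein genes (2.82%) fell, Rpsa by 0.43 (limma adjusted p = 0.0198) and Rps12 by 0.49 (limma adjusted p = 0.0417). Each of these 3 calls was lost without fasted polysome array 1 or 3 or fed polysome array 2 or 3, with limma adjusted p up to 0.135 for Ndufv2, 0.0986 for Rpsa and 0.148 for Rps12. The Ndufv2 call was also lost without fed total array 1, and the Rps12 call when any one of the fed total arrays, or fasted total array 1 or 2, was left out.

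Among the marker sets in total RNA, 2 of 5 endothelial markers were called higher in fasted than in fed dams, and 1 of 4 tested exocrine pancreas markers was called lower, with all 4 negative and a median of -1.31, in the comparison that includes fed total array 1. All 6 macrophage markers were positive in total RNA (median 0.20) with 0 called by limma and 3 at an unadjusted p under 0.05, and all 6 were positive in polysome RNA (median 0.13) with 1 called. No hepatocyte, erythroid, neutrophil or megakaryocyte marker was called for fasting in either fraction. Their part in the fasting results was not tested.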

How the data were processed

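The deposited values were probe intensity values on a linear scale, made by the authors with RMA, per the submitters' processing notes, with no version named. Values spanned 3.62 to 21344. Of 28826 probes, 15515 were in the platform table and 15209 had 1 symbol; 306 carried several, among them 1 that lists Mrpl20 with another gene, and were left out. The main fit used the symbols of the platform table. Symbols updated through 15178 Entrez identifiers served to match the other lists and for an alternative setting, and the update changed no member.

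The brightest probe stood for each gene. Genes below the 40th percentile of mean level over all probes (6.07) were not tested. A cell means model of 4 groups was fitted to log2(intensity + 1) with limma 3.58.1 in R 4.3.3 (lmFit, eBayes; 8 residual and 5.16 prior degrees of freedom), with two-sided p-values adjusted by Benjamini-Hochberg over 10174 genes. The fit was tried on simulated arrays with independent genes and known changes in fasted total RNA only. That simulation does not cover genes that shift together, the polysome comparisons or the difference between effects. The number of arrays limits the precision; the median SE of a difference was 0.0945 log2, and 0.134 between effects. Figures used Python 3.11.15 and matplotlib 3.10.9.

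In each comparison the members named were every call (beyond 10 calls, the 6 largest each way), the 3 largest differences each way with groups apart, and fixed landmarks; in other lists, at most 4 calls by smallest p. Members and lists were chosen with earlier results of these data known. The main fit used no replicate block, so its p-values are not paired. The labels do not say what a replicate number marks. For the liver block alone, same-numbered arrays of a diet were taken as 1 liver, which may not hold for pooled polysome preparations. Their deviations from group means correlated at 0.15 to 0.36 in all 6 such pairs. Same-numbered arrays across diets, within a fraction, correlated at -0.14 to 0.25. Pairs with unlike numbers were not set beside these. The alternatives were no filter, array centring, quantile normalization, averaged probes, no added 1, robust priors with a trend, fits to the compared arrays alone, replicate blocks, membership by current symbol, subunit by structure, leaving out each array and, chosen after seeing the data, leaving out fed polysome array 1 and fasted polysome array 2 together. Transcript lengths and proteins were not analysed here.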

Additional observations from a re-analysis of the deposited data

How the results depend on the processing

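The counts called on polysomes against total RNA lay between 53 and 58 in fasted dams and between 47 and 54 in fed dams over the settings that kept all arrays, and between 48 and 56 and between 38 and 51 when 1 array was left out. With same-numbered arrays of a diet blocked as 1 liver, an assumption the labels do not state, 58 members were higher in fasted dams. In fed dams 50 were then higher and 3 lower. With the replicate number as a block, 55 were higher in fasted dams, and 47 higher and 2 lower in fed dams. The block on replicate number left the member counts at 0 and 1 for fasting in total and polysome RNA, and both blocks left 0 for the difference. For fasting in polysome RNA the count of 1 became 0 with no filter, 0 with only the arrays compared and 9 without fed polysome array 1 and fasted polysome array 2 together, and 0 to 6 when 1 array was left out; in total RNA it became 1 (Mrpl21) with trend and robust priors. Over all genes, the fasting counts of 205 in polysome RNA and 105 in total RNA became 93 and 57 with no filter and 40 and 42 with only the arrays compared, and 394 in polysome RNA with trend and robust priors and 309 with the replicate number as a block. More genes tested or fewer arrays are part of the first 2 settings; other causes were not tested. The small minus large median in fed dams was 0.106 without both arrays named above and -0.020 to 0.106 when 1 was left out; for fasting in polysome RNA it was -0.045 to 0.013, and for the difference between effects -0.045 to 0.032.

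Signs turned only in values near 0. For Mrpl3 the fasting effect in polysome RNA was -0.02 after quantile normalization, -0.11 without both arrays and -0.14 to 0.10 when 1 was left out, and the difference between effects -0.20 to 0.04. For Mrpl44 the difference was -0.14 to 0.08 and the effect in total RNA -0.19 to 0.03. For Mrps30 the ranges were -0.09 to 0.02 for the difference, -0.07 to 0.03 in polysome RNA, -0.03 to 0.07 in total RNA, -0.04 to 0.03 for polysome against total RNA in fasted dams (0.03 with arrays centred) and -0.03 to 0.08 in fed dams. With 3 arrays a group, small changes could not be resolved.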
